A study of Mus musculus with 2 samples.

Results

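The 10 genes described here, *Pdcd1*, *Ctla4*, *Lag3*, *Havcr2*, *Tigit*, *Tox*, *Entpd1*, *Tnfrsf9*, *Icos* and *Tnfrsf4*, are those most often read as a record of chronic stimulation in tumor T cells, and they were taken by name from 32285 measured genes. Their UMIs (unique molecular identifiers, each standing for 1 captured mRNA molecule) were summed in T cells, defined as cells with at least 1 UMI of *Ptprc* (CD45) and at least 1 of *Cd3e*, *Cd3g* or *Trac* and with no UMI of the thymocyte genes *Rag1* and *Dntt*. This gave 404 T cells of 7764 in the control library, 5.20% (exact binomial 95% interval 4.72 to 5.72), and 1573 of 7839 in the *Dnmt1*iECKO library, 20.1% (19.2 to 21.0). All 8 T cell markers checked were detected in both libraries, at a summed 3594 and 3849 counts per 1000000 UMIs (CPM). The list holds *Cd3e*, *Cd3g* and *Trac*, which define the cells, so their detection was set by the definition. Endothelial markers summed to 401.5 and 377.2 CPM in the same cells, with a UMI of any of them in 58.4% and 56.45% of cells.

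Each library pooled the YUMMER1.7 melanoma tumors of 3 female C57BL/6-background mice aged 8 to 10 weeks, taken up by droplet 3′ single-cell RNA sequencing after a sort for live CD31+/CD45- cells. The knockout mice were labelled Cdh5CreERT2;Dnmt1fl/fl;ZsGreenlsl/lsl, a line in which tamoxifen turns on Cre in *Cdh5*-expressing endothelial cells and there deletes *Dnmt1*, the maintenance DNA methyltransferase. The controls were labelled C57BL/6 and, in the study's methods, carried the same Cre and the ZsGreen reporter. The methods do not say whether the controls were given tamoxifen. The labels give a subcutaneous injection into the shoulder, whereas the study's methods describe lung tumors after tail vein injection, so the site is not settled here. The T cells are thus the cells that passed a gate set to remove them: they were not deleted for *Dnmt1* by design, and their number says nothing of the number in the tumor.

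*Dnmt1* itself was at 50.6 CPM (exact Poisson 95% interval 48.8 to 52.4) in endothelial-like cells of the control library and at 27.1 CPM (25.2 to 29.1) in those of the *Dnmt1*iECKO library. In T cells it was at 80.1 CPM (72.9 to 87.9) and 79.6 CPM (75.9 to 83.5), with overlapping intervals. With 1 library per condition there was no replicate and no test between conditions. Every interval given for a level, a share or a ratio between the libraries covers counting error only, not the differences between mice, tumors or sorts, and 0 cells of either library had the markers required of melanoma-like cells. Only 29 cell barcodes occurred in both libraries.

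T cells were divided by the genes of the main lineages. *Foxp3*-positive cells, a class that holds regulatory T cells, numbered 31 in control and 92 in *Dnmt1*iECKO mice. Cells with *Cd8a* or *Cd8b1* and without Cd4 or *Foxp3* (Cd8-positive) numbered 169 and 650. Cells with Cd4 and without *Foxp3*, *Cd8a* or *Cd8b1* (Cd4-positive *Foxp3*-negative) numbered 108 and 435. These classes made up 7.67%, 41.8% and 26.7% of control T cells and 5.85%, 41.3% and 27.7% of *Dnmt1*iECKO T cells. The rest held UMIs of both lineages (8 and 54 cells) or of neither (88 and 342 cells). Median UMIs per cell were 10357 and 11180.5 in *Foxp3*-positive, 10554 and 10454.5 in Cd8-positive, and 8267.5 and 8585 in Cd4-positive *Foxp3*-negative cells. A cell with no UMI of a lineage gene may still express it, so the classes are classes of detection.

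PD-1 (*Pdcd1*), CTLA-4, LAG-3, TIM-3 (*Havcr2*) and TIGIT are inhibitory receptors that T cells put on their surface after antigen receptor signalling and keep while antigen persists, and several of them are blocked in cancer immunotherapy. TOX is a nuclear protein needed for the exhausted state, and also for the development of CD4 T cells in the thymus. CD39 (*Entpd1*) is an ectoenzyme that degrades extracellular ATP, while ICOS, OX40 (*Tnfrsf4*) and 4-1BB (*Tnfrsf9*) are costimulatory receptors that recently activated and regulatory T cells carry. The same genes therefore mark activation as well as exhaustion, and none of them alone identifies an exhausted cell.

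The genes lie on 6 chromosomes of GRCm38, the build of the deposited tables. *Ctla4* (chromosome 1, 60887000 to 60915832, plus strand) and *Icos* (chromosome 1, 60977927 to 61000320, plus strand) are neighbours 62094 bases apart, while *Pdcd1* lies far from them on the same chromosome (94038305 to 94052553, minus strand). *Tox* (6686353 to 6991557, minus strand), *Tnfrsf9* (150914562 to 150946102, plus strand) and *Tnfrsf4* (156013843 to 156016612, plus strand) share chromosome 4. Annotated genes overlap 5 of the 10: *Rpl18-ps1* lies in *Ctla4*, *Gm37039* in *Icos*, and *Gm16027*, *Gm8783* and *AC166063.1* in *Entpd1* on the same strand, with *Gm11802* opposite *Tox* and *Camta1* opposite *Tnfrsf9*. How UMIs at such overlaps were assigned was not tested.

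Promoter windows, from 250 bases before to 50 bases after a RefSeq transcription start (GRCm38.p6), were found for 7 of the 10 genes in 9 windows. They were searched on both strands for 4 motifs of factors that act downstream of the antigen receptor or in regulatory T cells: AP-1 (TGANTCA), NF-kB, the core of NFAT sites (GGAAA) and forkhead (TGTTTAC). Of 32851 such windows of all genes, 7.81% held the AP-1 motif, 5.56% NF-kB, 61.3% NFAT and 3.65% forkhead, and an NF-kB match can overlap an NFAT match. The windows shown are those of the genes with the 3 largest folds of *Foxp3*-positive over Cd8-positive cells (*Tnfrsf4*, *Tnfrsf9*, *Ctla4*) and that of *Pdcd1*, the gene lower in *Foxp3*-positive cells. Capitals mark the motif matches, and each sequence is written 5′ to 3′ on the strand of its gene.
Ctla4, chr1:60908775-60909074, plus strand: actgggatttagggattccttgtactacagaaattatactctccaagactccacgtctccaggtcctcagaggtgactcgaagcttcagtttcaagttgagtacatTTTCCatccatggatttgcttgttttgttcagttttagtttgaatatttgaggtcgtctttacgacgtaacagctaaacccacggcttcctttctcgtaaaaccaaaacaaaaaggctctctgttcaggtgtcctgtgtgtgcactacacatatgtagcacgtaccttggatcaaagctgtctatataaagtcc
Tnfrsf9, chr4:150919905-150920204, plus strand: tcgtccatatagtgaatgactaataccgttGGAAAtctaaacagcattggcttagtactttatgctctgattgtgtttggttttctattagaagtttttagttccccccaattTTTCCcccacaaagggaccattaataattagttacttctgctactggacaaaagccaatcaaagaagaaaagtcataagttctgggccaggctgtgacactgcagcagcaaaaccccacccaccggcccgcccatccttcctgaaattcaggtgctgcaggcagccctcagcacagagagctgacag
Tnfrsf9, chr4:150927749-150928048, plus strand: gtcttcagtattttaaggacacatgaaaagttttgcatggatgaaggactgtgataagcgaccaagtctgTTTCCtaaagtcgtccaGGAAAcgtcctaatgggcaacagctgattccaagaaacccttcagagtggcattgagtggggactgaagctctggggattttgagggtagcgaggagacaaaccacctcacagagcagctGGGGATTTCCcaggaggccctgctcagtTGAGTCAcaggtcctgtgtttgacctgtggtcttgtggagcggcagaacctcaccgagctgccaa
Tnfrsf4, chr4:156013445-156013744, plus strand: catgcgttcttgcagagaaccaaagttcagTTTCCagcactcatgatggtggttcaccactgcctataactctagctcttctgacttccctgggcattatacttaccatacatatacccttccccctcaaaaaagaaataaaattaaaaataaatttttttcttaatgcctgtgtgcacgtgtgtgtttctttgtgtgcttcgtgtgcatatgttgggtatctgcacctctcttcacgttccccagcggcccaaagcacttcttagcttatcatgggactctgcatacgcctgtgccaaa
Pdcd1, chr1:94052504-94052803, minus strand: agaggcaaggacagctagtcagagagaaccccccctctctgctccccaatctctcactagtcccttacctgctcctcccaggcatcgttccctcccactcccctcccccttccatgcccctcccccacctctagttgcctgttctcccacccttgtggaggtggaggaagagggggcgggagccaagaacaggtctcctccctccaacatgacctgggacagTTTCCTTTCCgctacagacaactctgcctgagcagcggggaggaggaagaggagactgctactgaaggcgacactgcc

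The window at 150927749 of *Tnfrsf9* held 1 AP-1, 1 NF-kB and 3 NFAT matches, and its other window held 2 NFAT matches. The *Ctla4* and *Tnfrsf4* windows held 1 NFAT match each, and the *Pdcd1* window held 2. The *Havcr2* window held 1 AP-1 match, and no window of the 9 held the forkhead motif. A match is a run of letters, not a shown binding site.

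Levels are given as CPM of the summed UMIs of a class. Shares of cells with a UMI are given after each cell was thinned to 2000 UMIs, so that cells of different depth compare, with 397 and 1554 T cells deep enough. Among these 3 subsets, and in both libraries, *Ctla4*, *Icos*, *Tnfrsf9*, *Tnfrsf4*, *Tox* and *Entpd1* were at their highest in *Foxp3*-positive cells, with intervals clear of the other subsets, whereas *Pdcd1* was highest in Cd8-positive cells. The subsets were compared by edgeR's quasi-likelihood test on the 6 sums (3 subsets in 2 libraries, with library as a term) across 10608 genes, with Benjamini-Hochberg adjusted p under 0.05 as the call. Residual degrees of freedom were 2, and since the libraries differ in genotype, the residual also holds any genotype difference between subsets.

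**Figure D1:**
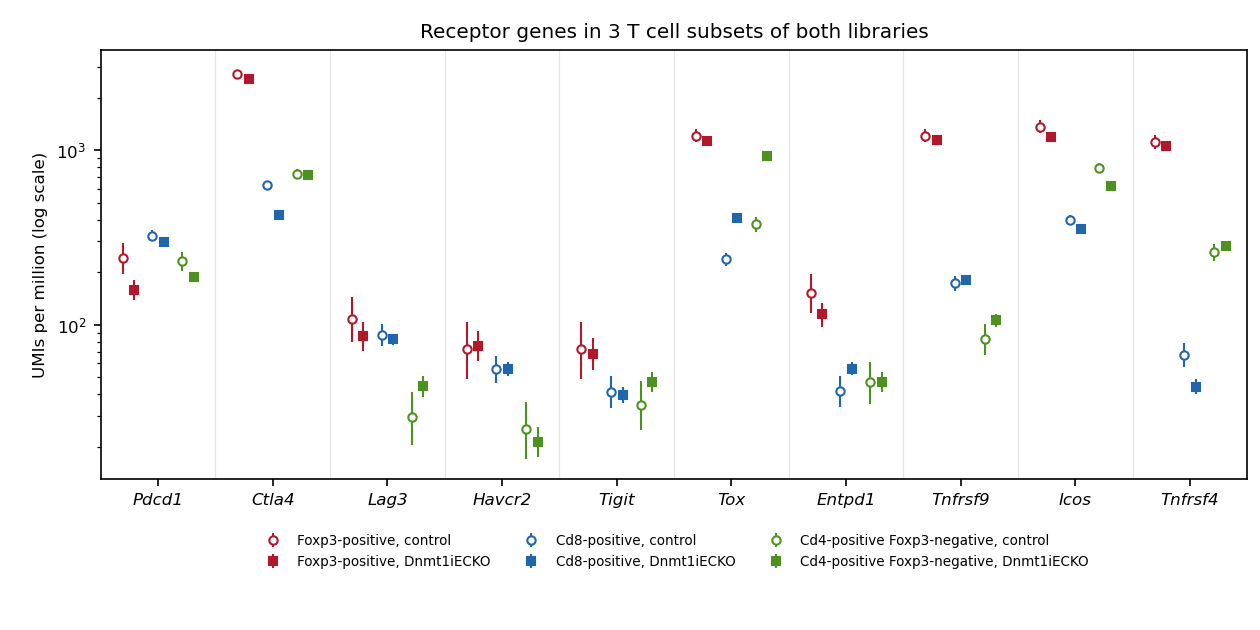
Level of each of the 10 genes in the 3 T cell subsets, in CPM on a log axis. Open circles are the control library and filled squares the Dnmt1iECKO library, with exact Poisson 95% intervals as bars. Ctla4 lay between 2562 and 2728 CPM in Foxp3-positive cells and between 425 and 730 CPM in the other subsets, while Pdcd1 was highest in Cd8-positive cells in both libraries.

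Of the 10 genes, 6 were higher in *Foxp3*-positive than in Cd8-positive cells, against 4.09% of all genes tested, and 1 was lower, against 4.85%. Between *Foxp3*-positive and Cd4-positive *Foxp3*-negative cells 7 were higher, against 3.98%, and 0 were lower, against 4.75%. Between Cd8-positive and Cd4-positive *Foxp3*-negative cells 2 were higher, against 0.424%, and 2 were lower, against 0.481%. The median log2 fold of the 10 genes was 1.56, 1.39 and 0.05 in these 3 comparisons, beside -0.03, -0.04 and -0.01 over all genes. Without cells that had *Ccr9* or *Itm2a* UMIs, a setting added after the data were seen, the 7 became 2 (*Ctla4* and *Tnfrsf9*), while the folds of the 5 lost calls kept their direction, at 1.86 (*Tnfrsf4*), 0.83 (*Icos*), 1.46 (*Lag3*), 1.49 (*Havcr2*) and 1.23 (*Entpd1*), with adjusted p from 0.0536 to 0.142 by edgeR. The count of 0 lower genes was also 0 at an unadjusted p under 0.05 and in DESeq2.

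*Pdcd1* encodes PD-1, the receptor of PD-L1 and PD-L2. In Cd8-positive cells it was at 323 CPM (300.1 to 347) in control mice and 298 CPM (286 to 310) in *Dnmt1*iECKO mice, and in *Foxp3*-positive cells at 241 CPM (196 to 293) and 159 CPM (138 to 181). In Cd4-positive *Foxp3*-negative cells it was at 231 CPM (204 to 261) and 188 CPM (176 to 200.0). Cd8-positive cells were thus highest in both libraries, and the order of the other subsets differed between the libraries, with overlapping intervals in each. *Foxp3*-positive cells had less *Pdcd1* than Cd8-positive cells (log2 fold -0.70 ± 0.15 SE, adjusted p = 0.0452 by edgeR, -0.42 in control and -0.91 in *Dnmt1*iECKO mice), a call lost with median-of-ratios size factors (adjusted p = 0.0514). Against Cd4-positive *Foxp3*-negative cells, neither *Foxp3*-positive (log2 fold -0.09, adjusted p = 0.748 by edgeR) nor Cd8-positive cells (0.61, adjusted p = 0.139) passed the test.

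*Pdcd1* UMIs were found after thinning in 29.9% and 27.0% of Cd8-positive, 35.5% and 31.9% of *Foxp3*-positive, and 25.9% and 20.3% of Cd4-positive *Foxp3*-negative cells. In endothelial-like cells, of similar depth (median 10126.5 and 10354 UMIs), the share was 0.0207% and 0.103%. The intervals of *Foxp3*-positive (19.2 to 54.6 and 22.5 to 42.5) and Cd8-positive cells (23.1 to 37.5 and 23.7 to 30.6) overlapped in both libraries. The highest single Cd8-positive cell held 31 and 44 *Pdcd1* UMIs and the highest *Foxp3*-positive cell 15 and 11.

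*Ctla4* encodes the receptor that competes with CD28 for CD80 and CD86 and that regulatory T cells express constitutively. It was at 2728 CPM (2572 to 2892) and 2562 CPM (2477 to 2648) in *Foxp3*-positive cells, at 628.5 CPM (596 to 662) and 425 CPM (411 to 439) in Cd8-positive cells, and at 730 CPM (682 to 781) and 723 CPM (699 to 747) in Cd4-positive *Foxp3*-negative cells. *Foxp3*-positive cells did not overlap the other subsets in either library. The log2 fold was 2.33 ± 0.14 SE over Cd8-positive cells (adjusted p = 0.00205 by edgeR) and 1.87 ± 0.14 SE over Cd4-positive *Foxp3*-negative cells (adjusted p = 0.00488). Between the 2 *Foxp3*-negative subsets the fold of -0.46 did not pass (adjusted p = 0.223 by edgeR), but did when cells with *Cdh5*, *Epcam*, *C1qa* or *Cd79a* UMIs were left out (-0.65, adjusted p = 0.0411). After thinning, 96.8% and 94.5% of *Foxp3*-positive cells had *Ctla4* UMIs, against 46.1% and 34.6% of Cd8-positive cells. In the *Foxp3*-positive subset 77.4% and 82.4% of cells had at least 3 of them in 2000.

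*Lag3* encodes a receptor for MHC class II. It was at 108 CPM (79.0 to 145) and 85.9 CPM (71.0 to 103) in *Foxp3*-positive cells and at 87.3 CPM (75.6 to 100.3) and 82.6 CPM (76.6 to 88.9) in Cd8-positive cells, with overlapping intervals and no call (log2 fold 0.14, adjusted p = 0.776 by edgeR). In Cd4-positive *Foxp3*-negative cells it was lower, at 29.6 CPM (20.5 to 41.3) and 44.4 CPM (38.7 to 50.6). The fold of *Foxp3*-positive over Cd4-positive *Foxp3*-negative cells was 1.31 ± 0.24 SE (adjusted p = 0.0341 by edgeR), 1.87 in control and 0.95 in *Dnmt1*iECKO mice. That call was lost without doublet removal (adjusted p = 0.0610) and without the cells that had UMIs of *Cdh5*, *Epcam*, *C1qa* or *Cd79a* (adjusted p = 0.0821). The fold of Cd8-positive over Cd4-positive *Foxp3*-negative cells, 1.17, missed the threshold (adjusted p = 0.0887 by edgeR) and passed it in DESeq2 (adjusted p = 0.0406).

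*Havcr2*, which encodes TIM-3, was at 72.2 CPM (48.7 to 103) and 75.6 CPM (61.7 to 91.7) in *Foxp3*-positive, at 55.7 CPM (46.5 to 66.3) and 55.9 CPM (51.0 to 61.2) in Cd8-positive, and at 25.2 CPM (16.9 to 36.2) and 21.3 CPM (17.4 to 25.7) in Cd4-positive *Foxp3*-negative cells. The order of the subsets was the same in both libraries. *Foxp3*-positive cells exceeded Cd4-positive *Foxp3*-negative cells by a log2 fold of 1.72 ± 0.19 SE (adjusted p = 0.0118 by edgeR). Cd8-positive cells exceeded them by 1.32 ± 0.18 SE (adjusted p = 0.0492), a call that 4 of the other settings lost (adjusted p from 0.0503 to 0.176). Between *Foxp3*-positive and Cd8-positive cells the fold of 0.39 did not pass (adjusted p = 0.242 by edgeR).

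*Tigit*, the receptor of the poliovirus receptor CD155, had the fewest UMIs of the 10 genes in T cells, 178 and 719. It was at 72.2 CPM (48.7 to 103) and 68.2 CPM (55.1 to 83.6) in *Foxp3*-positive, 41.3 CPM (33.3 to 50.5) and 39.6 CPM (35.5 to 44.1) in Cd8-positive, and 34.8 CPM (24.9 to 47.4) and 47.2 CPM (41.3 to 53.7) in Cd4-positive *Foxp3*-negative cells. *Foxp3*-positive cells had the highest level in both libraries, with control intervals that overlapped, and no *Tigit* fold passed the test (0.76 over Cd8-positive cells, adjusted p = 0.0813, and 0.74 over Cd4-positive *Foxp3*-negative cells, adjusted p = 0.0878, by edgeR).

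Among the costimulatory receptors, *Tnfrsf4*, encoding OX40, was at 1115 CPM (1016 to 1221) and 1062 CPM (1008 to 1118) in *Foxp3*-positive cells, at 260 CPM (231 to 291) and 282.5 CPM (268 to 298) in Cd4-positive *Foxp3*-negative cells, and at 67.2 CPM (56.9 to 78.7) and 44.1 CPM (39.8 to 48.8) in Cd8-positive cells. All 3 levels stood apart in both libraries. The log2 folds were 4.31 ± 0.19 SE for *Foxp3*-positive over Cd8-positive cells (adjusted p = 0.00104 by edgeR) and 2.00 ± 0.17 SE over Cd4-positive *Foxp3*-negative cells (adjusted p = 0.00642). *Tnfrsf4* was also lower in Cd8-positive than in Cd4-positive *Foxp3*-negative cells (-2.31 ± 0.18 SE, adjusted p = 0.0149 by edgeR). After thinning, it was found in 64.5% and 78.0% of *Foxp3*-positive cells and in 6.59% and 4.02% of Cd8-positive cells, beside 0.0829% and 0.103% of endothelial-like cells.

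*Tnfrsf9*, encoding 4-1BB, was at 1214 CPM (1110 to 1324) and 1145 CPM (1089 to 1203) in *Foxp3*-positive, 172.5 CPM (156 to 190) and 181 CPM (172 to 191) in Cd8-positive, and 82.6 CPM (66.8 to 101) and 106 CPM (97.4 to 116) in Cd4-positive *Foxp3*-negative cells. The order was that of *Havcr2* and differed from that of *Tnfrsf4*, in which Cd8-positive cells were lowest. The log2 fold was 2.72 ± 0.13 SE over Cd8-positive cells (adjusted p = 0.00104 by edgeR) and 3.64 ± 0.13 SE over Cd4-positive *Foxp3*-negative cells (adjusted p = 0.00196). Cd8-positive cells had more than Cd4-positive *Foxp3*-negative cells (0.92 ± 0.13 SE, adjusted p = 0.0492 by edgeR), a call lost in 6 of the other settings (adjusted p from 0.0542 to 0.140).

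*Icos*, whose product binds ICOS ligand and sustains helper and regulatory T cells, was at 1365 CPM (1255 to 1483) and 1193 CPM (1136 to 1253) in *Foxp3*-positive, 796 CPM (746 to 850) and 623 CPM (601 to 646) in Cd4-positive *Foxp3*-negative, and 396 CPM (371 to 423) and 353 CPM (340 to 366) in Cd8-positive cells. No intervals overlapped between the subsets of a library. The log2 folds were 1.75 ± 0.09 SE for *Foxp3*-positive over Cd8-positive cells (adjusted p = 0.00136 by edgeR), 0.87 ± 0.09 SE over Cd4-positive *Foxp3*-negative cells (adjusted p = 0.00979), and -0.88 ± 0.09 SE for Cd8-positive over Cd4-positive *Foxp3*-negative cells (adjusted p = 0.0291). The last was lost without doublet removal (adjusted p = 0.0905).

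*Entpd1*, encoding CD39, was at 152 CPM (117 to 194) and 114.5 CPM (97.2 to 134) in *Foxp3*-positive cells, at 41.7 CPM (33.7 to 51.0) and 56.0 CPM (51.1 to 61.3) in Cd8-positive cells, and at 47.0 CPM (35.3 to 61.3) and 47.0 CPM (41.1 to 53.4) in Cd4-positive *Foxp3*-negative cells. *Foxp3*-positive cells stood above both other subsets in each library, and the intervals of the other subsets overlapped in both. The log2 fold was 1.37 ± 0.23 SE over Cd8-positive cells (adjusted p = 0.0238 by edgeR) and 1.48 ± 0.24 SE over Cd4-positive *Foxp3*-negative cells (adjusted p = 0.0239). Both calls were lost without doublet removal (adjusted p = 0.116 and 0.108).

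*Tox* was the gene whose subset differences depended most on the library. It was at 1214 CPM (1110 to 1324) and 1125 CPM (1069 to 1183) in *Foxp3*-positive cells, at 376.5 CPM (342 to 414) and 922 CPM (896 to 949.5) in Cd4-positive *Foxp3*-negative cells, and at 237 CPM (217 to 257) and 409 CPM (395 to 423) in Cd8-positive cells. The order was the same in both libraries, with no overlap of intervals. Over Cd8-positive cells the log2 fold was 1.92 ± 0.31 SE (adjusted p = 0.0229 by edgeR), made of 2.36 (control) and 1.46 (*Dnmt1*iECKO). Over Cd4-positive *Foxp3*-negative cells it was 0.98 (adjusted p = 0.115 by edgeR), made of 1.69 and 0.29, and this fold passed in DESeq2 (adjusted p = 0.0239).

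Over all T cells, the log2 ratios of the receptors between the libraries (*Dnmt1*iECKO over control) lay between -0.32 (*Ctla4*) and 0.81 (*Tox*), with 3 counting intervals above 0 and 3 below it. Of the 10 genes, 0 were at least 2-fold higher and 0 at least 2-fold lower in the *Dnmt1*iECKO library, beside 4.76% and 5.28% of 14593 genes, and their median log2 ratio was -0.01, against -0.02 over all genes. In *Foxp3*-positive cells 0 were 2-fold higher and 0 lower, beside 7.76% and 3.27% of 7992 genes. In Cd8-positive cells the counts were also 0 and 0, beside 5.56% and 3.69% of 12250 genes. Cd4-positive *Foxp3*-negative cells had 1 gene, *Tox*, that was over 2-fold higher and 0 that were lower, beside 6.24% and 8.44% of 11502 genes. With 1 library per condition none of these ratios could be tested.

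**Figure D2:**
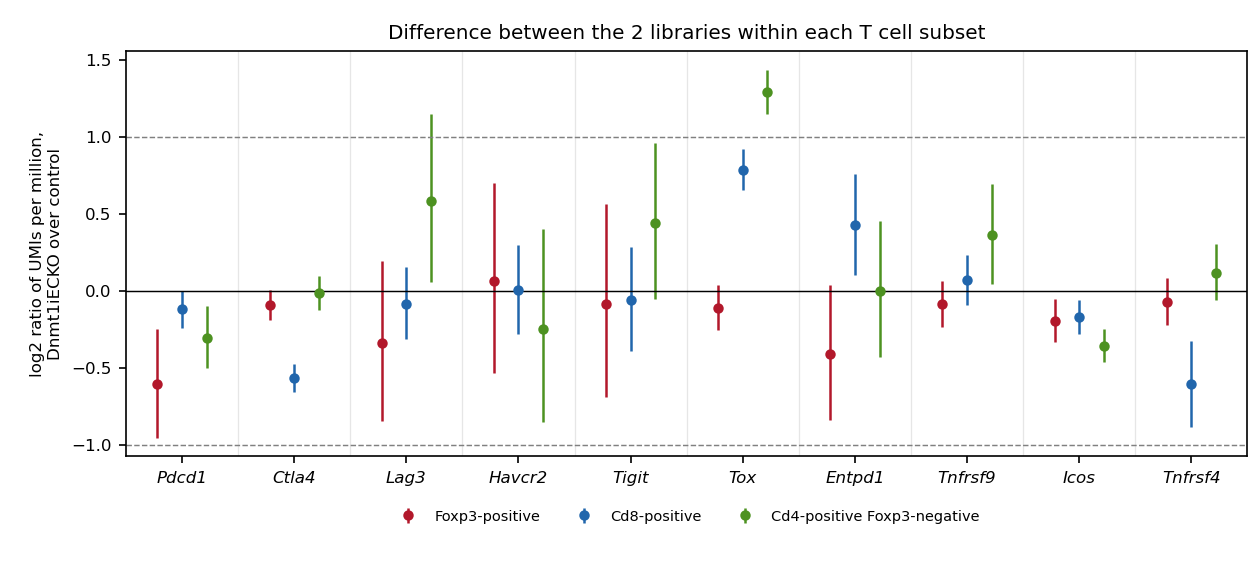
Log2 ratio of the CPM in the Dnmt1iECKO library over that in the control library for each gene in the 3 subsets. Bars are exact conditional 95% intervals that cover counting error only. Dashed lines mark a 2-fold difference. Tox in Cd4-positive Foxp3-negative cells, at 1.29, is the only point past a dashed line.

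*Tox* was higher in the *Dnmt1*iECKO library by 0.81 on the log2 scale (95% counting interval 0.73 to 0.88) in all T cells, at 522 against 298 CPM. The difference was 1.29 (1.15 to 1.44) in Cd4-positive *Foxp3*-negative cells, a 2.45-fold ratio, and 0.79 (0.66 to 0.92) in Cd8-positive cells. In *Foxp3*-positive cells the ratio was -0.11 (-0.26 to 0.04). Across the settings tried, the ratio lay between 1.15 and 1.36 in Cd4-positive *Foxp3*-negative, 0.62 and 1.13 in Cd8-positive, and -0.42 and 0.06 in *Foxp3*-positive cells. The share of cells with *Tox* UMIs after thinning moved the same way, from 41.7% (32.3 to 51.6) to 61.9% (57.1 to 66.5) in Cd4-positive *Foxp3*-negative cells and from 27.5% (20.9 to 35.0) to 41.3% (37.4 to 45.2) in Cd8-positive cells. Cells with at least 3 *Tox* UMIs in 2000 made up 9.26% (control) and 30.5% (*Dnmt1*iECKO) of Cd4-positive *Foxp3*-negative cells. In cells with both Cd4 and Cd8 UMIs (8 and 54 cells) the *Tox* ratio was 1.59 (1.15 to 2.06). In Cd4- and Cd8-negative cells it was 0.64 (0.41 to 0.89), but the share after thinning did not rise there, at 30.1% and 28.6%.

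Some genes of immature T cells moved with *Tox* and another moved against it. *Ccr9*, a chemokine receptor of thymocytes and gut T cells, was at 5.22 CPM in control and 32.6 CPM in *Dnmt1*iECKO Cd4-positive *Foxp3*-negative cells, *Itm2a* at 36.5 and 155 CPM, and *Sox4* at 30.4 and 99.5 CPM, whereas *Cd24a*, of the same list, was at 210.4 and 36.5 CPM, with UMIs in 7.41% and 10.8% of cells. *Sostdc1*, the remaining gene of the list, was at 0 and 37.5 CPM, with UMIs in 2.30% of the *Dnmt1*iECKO cells. The whole list of 5 genes summed to 283 CPM (4 detected) and 361 CPM (5 detected), with a UMI of any of them in 38.0% and 43.9% of cells. The 241 cells with *Rag1* or *Dntt* UMIs of the *Dnmt1*iECKO library, left out of the main classes, had 267 CPM of *Tox*. That was below the 409 CPM of Cd8-positive cells, the lowest of the 3 subsets in that library. The control library had 3 cells with *Rag1* or *Dntt* UMIs. Cells with *Ccr9* or *Itm2a* UMIs made up 27.8% and 37.0% of the Cd4-positive *Foxp3*-negative subset. Without them, a separation added after the data were seen, the *Tox* ratio was 1.15 (0.97 to 1.34) there, from 330 to 733 CPM, and it was 1.31 (1.08 to 1.55) within them, from 492 to 1218 CPM. In Cd8-positive cells it was 1.13 (0.94 to 1.32) without and 0.33 (0.14 to 0.52) within them. A cell with no UMI of either gene may still be immature, and a cell with one may be mature. In the control library *Itm2a* UMIs were found, without thinning, in 25.9% of Cd4-positive *Foxp3*-negative and 27.2% of Cd8-positive cells. The separation is thus not one of immature from mature cells, and the part of immature cells in the *Tox* ratio was not tested.

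*Ctla4* was lower in the *Dnmt1*iECKO library by a log2 ratio of -0.32 (-0.37 to -0.26) in all T cells, -0.12 (-0.18 to -0.05) in those without and -0.74 (-0.84 to -0.65) in those with *Ccr9* or *Itm2a* UMIs. In Cd8-positive cells it was -0.56 (-0.65 to -0.47) and in Cd4- and Cd8-negative cells -1.07 (-1.30 to -0.84), while it was -0.09 (-0.19 to 0.01) in *Foxp3*-positive and -0.01 (-0.12 to 0.10) in Cd4-positive *Foxp3*-negative cells. The share of Cd8-positive cells with *Ctla4* UMIs was 46.1% (38.4 to 54.0) against 34.6% (31.0 to 38.4) in *Dnmt1*iECKO mice. *Tnfrsf4* was at -0.61 (-0.88 to -0.32) in Cd8-positive cells, at -0.07 (-0.22 to 0.08) in *Foxp3*-positive cells and at 0.12 (-0.06 to 0.31) in Cd4-positive *Foxp3*-negative cells. Whether these ratios differ between subsets was not tested.

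*Icos* was lower in all T cells (-0.30, -0.36 to -0.24) and in each subset, by -0.19 (-0.33 to -0.05) in *Foxp3*-positive, -0.17 (-0.28 to -0.06) in Cd8-positive and -0.35 (-0.46 to -0.25) in Cd4-positive *Foxp3*-negative cells. In Cd8-positive cells without *Ccr9* or *Itm2a* UMIs it turned to 0.21 (0.07 to 0.35), and in *Foxp3*-positive cells it turned to 0.10 without doublet removal. *Pdcd1* was lower in all T cells (-0.21, -0.30 to -0.12), with -0.60 (-0.95 to -0.25) in *Foxp3*-positive, -0.12 (-0.24 to 0.00) in Cd8-positive and -0.30 (-0.50 to -0.10) in Cd4-positive *Foxp3*-negative cells. It kept its sign in every subset and setting tried, but without cells that had *Ccr9* or *Itm2a* UMIs the *Foxp3*-positive value was -0.15 (-0.61 to 0.33), and within them -1.47 (-2.09 to -0.86). The *Foxp3*-positive value over all cells rests on 100 UMIs in 31 control cells.

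Cell cycle genes differed beside *Pdcd1* in *Foxp3*-positive cells, where *Mki67*, a marker of cycling cells, was at 212 CPM (control) and 532 CPM (*Dnmt1*iECKO). The share of cells with a *Mki67* UMI was however 41.9% and 42.4%, nearly the same. The part of either in the *Pdcd1* ratio was not tested.

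*Lag3* was higher in Cd4-positive *Foxp3*-negative cells of the *Dnmt1*iECKO library (0.59, 0.06 to 1.15), on 34 and 219 UMIs, and was at -0.08 (-0.31 to 0.15) in Cd8-positive cells. *Tnfrsf9* was at 0.36 (0.05 to 0.70) in Cd4-positive *Foxp3*-negative cells, although its UMIs were found after thinning in 13.9% and 12.2% of them. In all T cells it was at 0.00 (-0.09 to 0.10), made of 0.32 (0.20 to 0.45) in cells without and -0.57 (-0.72 to -0.41) in cells with *Ccr9* or *Itm2a* UMIs. *Tigit* was at 0.11 (-0.13 to 0.35) in all T cells, and its interval held 0 in every subset. In Cd4-positive *Foxp3*-negative cells it was at 0.44 (-0.05 to 0.96), and at 0.64 (0.07 to 1.27) without cells that had *Ccr9* or *Itm2a* UMIs. Across the settings tried, *Tigit* lay there between 0.42 and 0.68. Intervals that held 0 still allow differences, which for *Tigit* in *Foxp3*-positive cells reach from -0.69 to 0.56.

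*Havcr2* and *Entpd1*, both also genes of myeloid cells, were higher in all T cells of the *Dnmt1*iECKO library (0.26, 0.05 to 0.47, and 0.30, 0.13 to 0.46). Macrophage markers moved with them, with all 8 detected, at a summed 1523 CPM in control and 2540 CPM in *Dnmt1*iECKO T cells. A UMI of any of them was found in 27.0% and 41.4% of cells. Neutrophil markers moved too, at a summed 28.95 and 179.5 CPM, with a UMI of any of them in 1.98% and 13.5% of cells. When cells with *Lyz2* UMIs were left out, an alternative added after the data were seen, the ratios of *Havcr2* and *Entpd1* were -0.10 and -0.03. In Cd4- and Cd8-negative T cells *Havcr2* was at 24.9 and 60.4 CPM and *Entpd1* at 62.3 and 143 CPM. Macrophage markers there summed to 2854 and 5478 CPM and neutrophil markers to 39.2 and 663.6 CPM. The part of RNA from either cell type in these ratios was not tested. In Cd8-positive cells *Havcr2* differed by 0.00 (-0.28 to 0.30) and *Entpd1* by 0.43 (0.11 to 0.76). The *Entpd1* value turned to -0.11 when cells with both Cd4 and Cd8 UMIs were included. The 8 such control cells held 57 *Entpd1* UMIs, 44 of them in a single cell.

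Most T cells carried several receptors. After thinning, at least 2 of the 10 genes were found in 55.9% (50.9 to 60.9) of T cells from control mice and 53.4% (50.9 to 55.9) of those from *Dnmt1*iECKO mice, a log2 ratio of -0.07 (-0.28 to 0.15). *Foxp3*-positive cells had a mean of 4.84 and 5.02 receptor genes per cell, against 2.04 and 2.01 in Cd8-positive and 2.33 and 2.49 in Cd4-positive *Foxp3*-negative cells. At least 5 genes were found in 58.1% (39.1 to 75.5) and 63.7% (53.0 to 73.6) of *Foxp3*-positive cells. The share was 11.4% (6.99 to 17.2) and 12.2% (9.79 to 14.98) in Cd8-positive and 11.1% (5.88 to 18.6) and 14.3% (11.2 to 18.0) in Cd4-positive *Foxp3*-negative cells. The number of receptors thus followed the subset in both libraries, while the intervals of the 2 libraries overlapped within each subset.

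Cells with none of the 10 genes made up 25.1% (18.8 to 32.4) and 24.1% (20.9 to 27.6) of Cd8-positive cells and 10.2% (5.20 to 17.5) and 10.2% (7.48 to 13.4) of Cd4-positive *Foxp3*-negative cells. Among *Foxp3*-positive cells there were 0 of 31 and 1 of 91. A cell without a UMI in 2000 may hold the mRNA: on all UMIs, 93.8% and 95.8% of T cells had at least 1 of the genes.

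**Figure D3:**
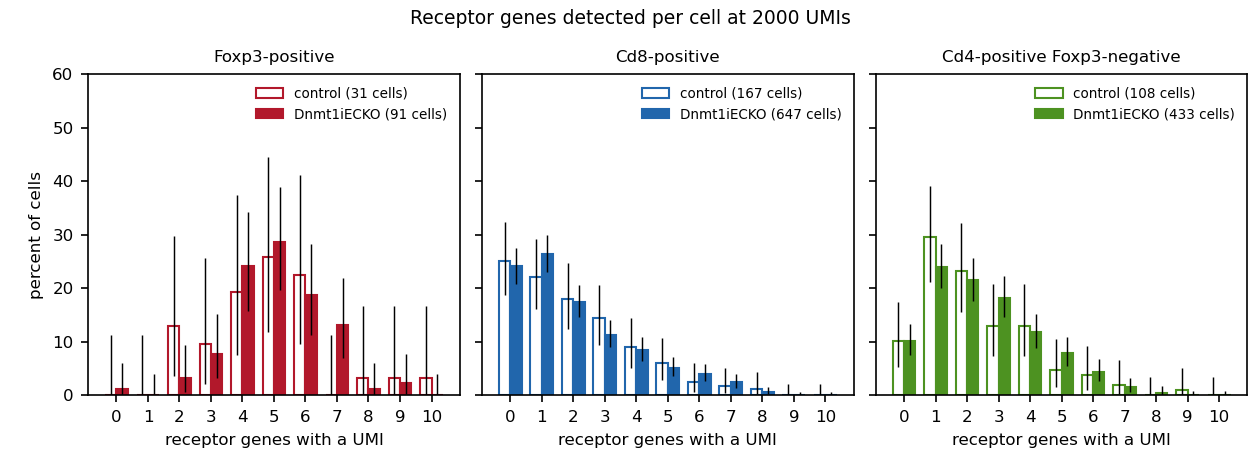
Percent of cells by the number of the 10 genes with a UMI after thinning to 2000 UMIs, for the 3 subsets in both libraries, with exact binomial 95% intervals as bars. Foxp3-positive cells centre on 4 to 6 genes, the other subsets on 0 to 3, and the libraries overlap within each subset.

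Pairs of receptors were found in the same cell more often than the product of their shares gives. In Cd8-positive cells 30 of the 45 pairs had at least 2 cells by that product in both libraries, and 29 of the 30 lay above it in both, with median ratios of 1.45 and 1.48. *Pdcd1* and *Lag3* were found together in 17 control cells, where the product gives 5.69, and in 54 *Dnmt1*iECKO cells, where it gives 19.7. Of the Cd8-positive cells with *Lag3* UMIs, 89.5% and 74.0% also had *Pdcd1* UMIs. *Lag3* and *Tnfrsf9* shared 12 cells (product 3.53) and 41 cells (product 12.0), and *Pdcd1* and *Tnfrsf9* shared 23 (9.28) and 69 (28.7). The pair of *Pdcd1* and *Ctla4* reached 1.65 and 2.11 times the product.

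*Tox* with *Pdcd1* reached 1.45 and 1.47 times the product in Cd8-positive cells, near the median pair, and *Tox* with *Icos* 1.09 and 1.26 times. In Cd4-positive *Foxp3*-negative cells *Tox* and *Icos* lay at 0.97 and 1.00 times the product, and *Tox* and *Ctla4* at 1.01 and 1.06 times. In the same cells *Pdcd1* and *Ctla4* lay at 1.54 and 1.70 times, and *Pdcd1* and *Tnfrsf9* at 2.31 and 2.41 times. No ratio can exceed the reciprocal of the larger share, so pairs that hold a common gene, such as *Tox* or *Icos*, are limited to lower ratios than pairs of rarer genes.

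Among Cd4-positive *Foxp3*-negative cells 21 of 24 pairs lay above the product in both libraries, with median ratios of 1.40 and 1.27, while in *Foxp3*-positive cells it was 18 of 35, with medians of 1.04 and 1.02. The pairs share cells, libraries and, where a class mixes resting and activated cells, that mixture, so the ratios are a description and no p is given.

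**Figure D4:**
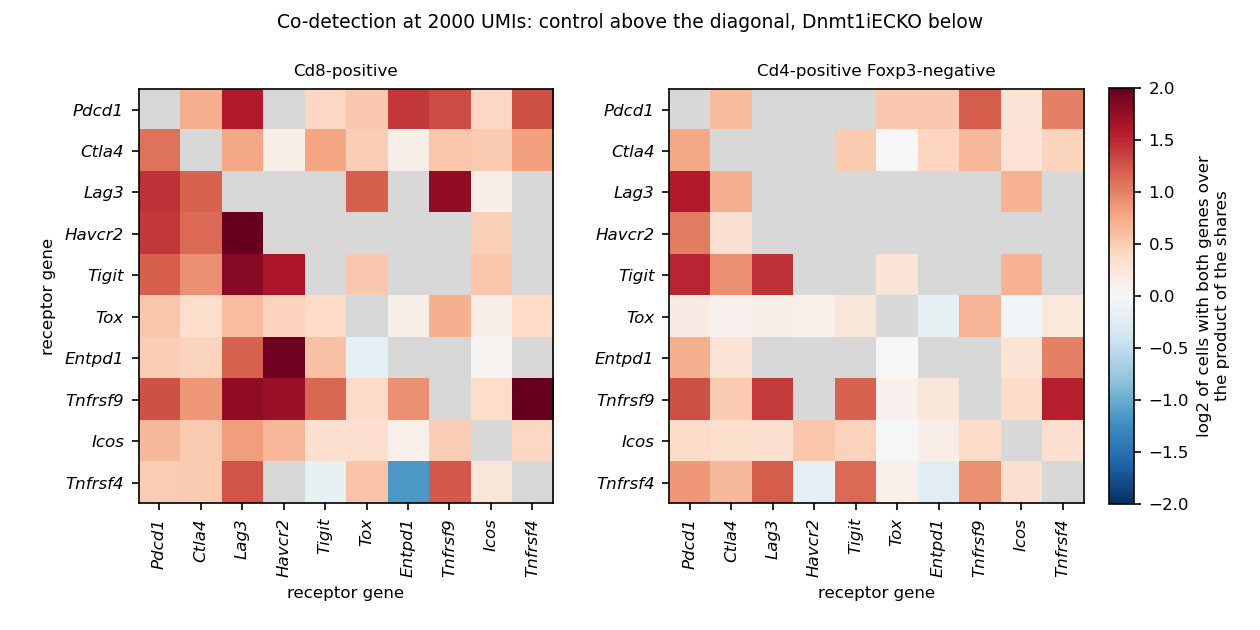
Log2 ratio of the number of cells with UMIs of both genes over the number given by the product of the shares, after thinning, in Cd8-positive and in Cd4-positive Foxp3-negative cells. Values above the diagonal are the control library and those below it Dnmt1iECKO, grey marks pairs with under 2 cells by the product, and the scale ends at 2 in either direction. Pdcd1 with Lag3 (2.99 and 2.74 times the product in Cd8-positive cells) and with Tnfrsf9 lie above the product, and Tox with Icos lies near 1 in Cd4-positive Foxp3-negative cells.

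Outside the T cells, cells were classed by at least 3 markers of a type, and the genes differed in how far they were found there. *Pdcd1* reached 3.11 CPM at most outside the T lineage, in dendritic-like cells of the control library, and 0.0643 and 0.111 CPM in endothelial-like cells. *Icos* reached 26.0 and 42.4 CPM and *Tigit* 30.7 and 22.9 CPM in NK-like cells, for *Tigit* close to the 31.4 CPM of all control T cells. *Ctla4* was at 85.8 and 46.8 CPM in B-like cells, and *Lag3* at 9.77 and 8.27 CPM in fibroblast-like cells. *Tnfrsf4*, at 17.6 and 72.7 CPM in dendritic-like cells, was found in 0 of 43 and 0 of 125 NK-like cells.

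*Tnfrsf9* was at 439 and 261 CPM in NK-like cells, above its level in Cd8-positive T cells in both libraries. *Tox* was at 149 and 118 CPM in NK-like cells, below all 3 subsets. *Havcr2* was at 371 and 248 CPM in dendritic-like and 141 and 178 CPM in macrophage-like cells, above every T cell subset. *Entpd1* was at 2262 and 3103 CPM in neutrophil-like cells, with UMIs in 100% and 99.6% of them, and at 165.5 and 169 CPM in endothelial-like cells.

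Since endothelial-like cells held *Entpd1* and macrophage-like cells *Havcr2*, each was set against a gene of that cell type in the same cells. Per 100 UMIs of the endothelial gene *Cdh5*, *Entpd1* had 12.0 and 12.5 UMIs in endothelial-like cells and 87.2 and 118 in Cd8-positive T cells. Per 100 UMIs of *Lyz2*, *Havcr2* had 1.04 and 1.34 UMIs in macrophage-like cells and 10.7 and 11.4 in Cd8-positive T cells. In Cd4-positive *Foxp3*-negative cells *Havcr2* was at 3.76 and 1.67 per 100 *Lyz2* UMIs, beside the macrophage-like 1.04 and 1.34. Neutrophil-like and dendritic-like cells were not set as sources, and the part of RNA from other cells in either level was not tested.

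**Figure D5:**
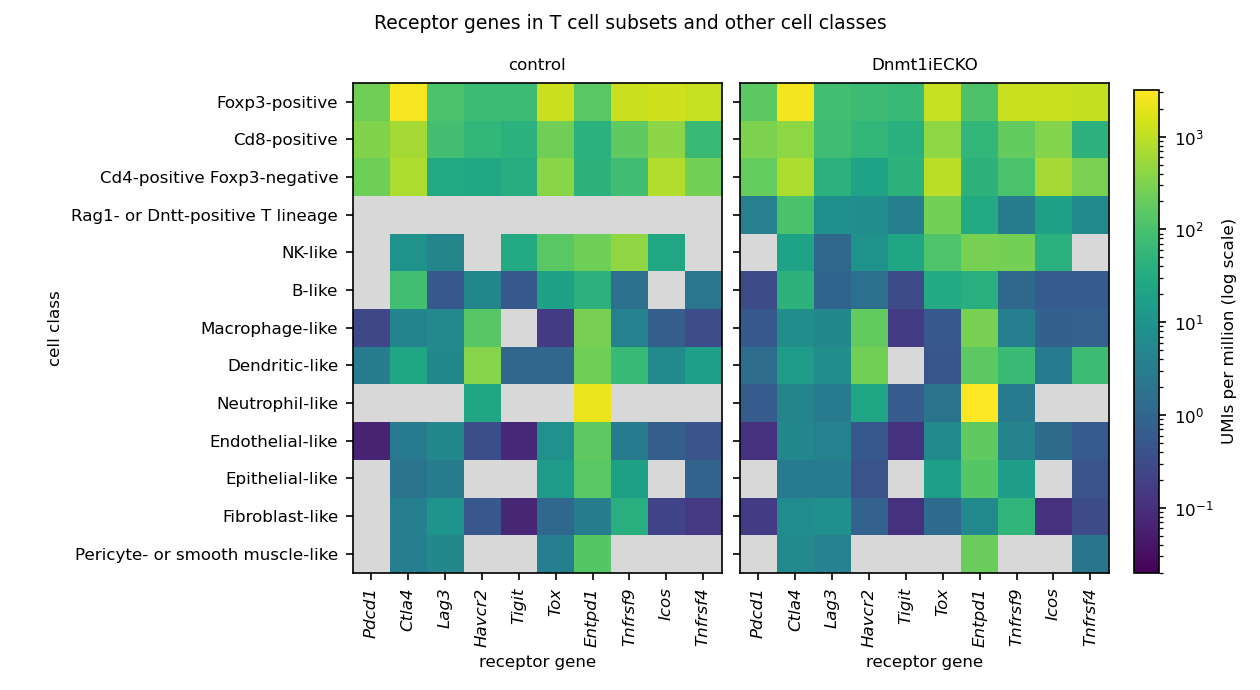
Level of the 10 genes, in CPM on a log color scale, in T cell subsets and in the other cell classes of both libraries. Grey marks no UMI or a class with under 30 cells. Pdcd1 is at most 3.11 CPM outside the T lineage, while Entpd1 is highest in neutrophil-like cells and Havcr2 in dendritic-like cells.

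Lists of other genes of these pathways were set against the same shares of all genes tested, 4.09% higher and 4.85% lower in *Foxp3*-positive than in Cd8-positive cells, and 3.98% and 4.75% against Cd4-positive *Foxp3*-negative cells. Of 18 other inhibitory and costimulatory receptors, 5 were higher and 3 lower in *Foxp3*-positive than in Cd8-positive cells, and 5 were higher and 2 lower against Cd4-positive *Foxp3*-negative cells, with median log2 folds of 0.24 and 0.23. *Tnfrsf1b*, the second receptor of TNF, was higher in both (0.80 ± 0.12 and 0.73 ± 0.12 SE, adjusted p = 0.0160 and 0.0235 by edgeR). *Cd28*, the costimulatory receptor whose ligands CTLA-4 shares, was lower against Cd4-positive *Foxp3*-negative cells (-0.49 ± 0.10 SE, adjusted p = 0.0414 by edgeR). Of 17 transcription factors of activation and exhaustion 5 were higher and 3 lower against Cd8-positive cells, with *Ikzf2* (Helios) at 3.23 ± 0.16 SE (adjusted p = 0.00131 by edgeR) and *Id2* at 0.75 ± 0.15 SE (adjusted p = 0.0390).

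Of 12 genes of naive and stem-like T cells 0 were higher and 9 lower in *Foxp3*-positive than in Cd8-positive cells by edgeR, the same counts as at an unadjusted p under 0.05, with a median log2 fold of -1.86. *Satb1* and *Lef1*, nuclear factors of naive T cells, were at -2.42 ± 0.24 SE (adjusted p = 0.00581 by edgeR) and -2.62 ± 0.12 SE (adjusted p = 0.00104). Of 16 effector genes 3 were higher and 8 lower, with the chemokine *Ccl5* at -2.98 ± 0.22 SE (adjusted p = 0.00279 by edgeR) and *Nkg7*, a cytotoxic granule protein, at -1.91 ± 0.29 SE (adjusted p = 0.0184). Of 12 Treg genes 10 were higher, *Foxp3* among them by the definition of the subset, and 0 were lower by edgeR, also at an unadjusted p under 0.05. *Tnfrsf18*, encoding GITR, was at 2.42 ± 0.11 SE over Cd8-positive cells (adjusted p = 0.00104 by edgeR). Of 6 cell cycle genes 0 passed in any comparison by edgeR (1, 6 and 1 were higher at an unadjusted p under 0.05), with *Mki67* at 0.89 over Cd8-positive cells (adjusted p = 0.222 by edgeR). The share of all genes at an unadjusted p under 0.05 is not given here, so counts at that cut cannot be set against it.

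Of 13 genes on the list of ligands 11 were tested, and 3 were higher and 0 lower in *Foxp3*-positive than in Cd8-positive cells by edgeR (5 and 2 at an unadjusted p under 0.05). *Fgl2*, a secreted inhibitor of T cells that binds an Fc receptor, was at 1.37 ± 0.21 SE (adjusted p = 0.0184 by edgeR), and *Cd274*, encoding PD-L1, at 0.42 (adjusted p = 0.106). *Cd274* was at 147 (137 to 157) and 144 CPM (139 to 149) in T cells, at 396 and 377 CPM in macrophage-like cells and at 99.4 and 108 CPM in endothelial-like cells. *Cd86*, a ligand of CTLA-4, was at 121 and 142 CPM in T cells, at 538 and 606 CPM in macrophage-like cells and at 0.257 and 0.812 CPM in endothelial-like cells.

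Between the libraries, naive and stem-like genes had a median log2 ratio of 0.34 in all T cells, with 9 of 12 higher in the *Dnmt1*iECKO library. It was 0.59 in *Foxp3*-positive (10 genes with at least 20 UMIs), 0.19 in Cd8-positive and 0.42 in Cd4-positive *Foxp3*-negative cells. Over all genes the median was -0.02 in all T cells and 0.02, -0.02 and -0.003 in these subsets. The share of all genes above 0 is not given here, so counts of higher genes cannot be set against it. The list of immature T cell genes that holds *Ccr9* and *Itm2a* summed to 153.4 and 199.8 CPM in all T cells. The part of immature cells in these ratios was not tested. *Satb1* was at 635 and 849 CPM and *Bach2*, a repressor of effector genes, at 560 and 715.5 CPM in all T cells, while *Il7r*, the IL-7 receptor, was at 454 and 440.0 CPM. The other receptors had a median of -0.06, the transcription factors -0.11, the effector genes 0.08, the Treg genes -0.14 and the ligands 0.01. *Cd27*, a costimulatory receptor of less differentiated T cells, was at 152 and 218 CPM (0.52, 0.42 to 0.63). Effector genes had medians of 0.25 in Cd8-positive and -0.26 in Cd4-positive *Foxp3*-negative cells, and in Cd8-positive cells *Gzma*, encoding granzyme A, was at 145 and 298 CPM (1.04, 0.87 to 1.21). NK cell markers moved with it there, with all 6 detected at a summed 117 and 164 CPM and a UMI of any of them in 29.0% and 40.8% of cells, and their part in it was not tested. The 5 thymocyte genes summed to 0.177 and 5.69 CPM in all T cells, and 0 of them had enough UMIs to be tested between subsets. Cells with *Rag1* or *Dntt* UMIs had been left out by definition, so these sums hold only *Rag2*, *Ptcra* and *Arpp21*. Cell cycle genes had a median of -0.46 in all T cells, with 0 of 6 higher, and of 1.27 in *Foxp3*-positive cells, with 6 of 6 higher.

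Genes whose pattern was most like that of the receptors were ranked by the log2 ratio of CPM in T cells with at least 2 receptor genes over that in T cells with none, taking the lower of the 2 libraries. Of 9377 genes compared over 222 and 830 against 78 and 320 T cells, the 10 leading genes were *Foxp3*, *Tnfsf11*, *Neb*, *Penk*, *Tff1*, *Izumo1r*, *Ccl1*, *Cxcr6*, *Ptger2* and *Ccr4*. *Tnfsf11*, encoding RANKL, had ratios of 4.71 and 4.65, *Izumo1r*, the folate receptor 4 of regulatory and helper T cells, 4.34 and 4.41, and *Cxcr6*, a chemokine receptor of tissue T cells, 4.08 and 4.61. *Cxcr6* was at 415 and 271 CPM in T cells with at least 2 receptors and at 24.6 and 11.1 CPM in those with none. *Foxp3*, *Penk* and *Tff1* had no UMI in control cells without receptors, so no fold is given for them.

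In Cd8-positive cells the leading 5 of 8868 genes were *Nrgn*, *Penk*, *Cxcr6*, *Stk32c* and *Ptger2*, with *Cxcr6* at 4.90 and 4.72, from 88 and 320 against 42 and 156 cells. In Cd4-positive *Foxp3*-negative cells the leading genes of 7150 included *Rgs1*, *Bcl2a1d*, *Nkg7* and *Cxcr6*, from 65 and 285 against only 11 and 44 cells. *Rgs1*, a regulator of chemokine receptor signalling, had ratios of 5.95 and 4.28 there. *Foxp3*-positive cells were not ranked, since 0 and 1 of them had no receptor. *Cxcr6* was among the leading genes in all T cells and in both ranked subsets.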

How the data were processed

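Per the labels and the study's methods, 2 libraries of 10x 3′ chemistry were counted by Cell Ranger against mm10, and the deposited values are whole-number counts of UMIs per gene and cell from the authors' filtered matrices, without normalization. The study removed *Ptprc*-expressing cells from its own analysis, whereas they were kept here. Per the file headers the Cell Ranger version was 9.0.1. The libraries held 9301 (control) and 9522 (*Dnmt1*iECKO) cells with 123830489 and 141433493 UMIs, and 0 columns were left unused.

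Cells with over 10% mitochondrial UMIs or under 500 genes were left out, and doublet scores (scanpy 1.11.5) marked 257 and 263 cells, a fixed 0.4% per 1000 cells. Levels are summed UMIs per 1000000 with exact Poisson intervals, shares carry Clopper-Pearson intervals, and ratios between libraries exact conditional intervals. All are at 95% and cover counting error only. A count of 0 allows up to 3 UMIs. Subset sums were tested by edgeR 4.0.16 (TMM, filterByExpr, library as a term) in R 4.3.3, on sums checked on simulated data, with DESeq2 1.42.0 as an alternative. Subsets of the same pools are not separate animals, so p-values measure only the spread between these sums. Library ratios were computed for genes with at least 20 UMIs over both libraries.

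The 10 receptors and all gene lists were chosen with earlier results of these data known. All 10 were named, list examples were the genes with the most UMIs in T cells, and alike genes had at least 50 UMIs (20 in subsets) per library; 1 leading gene is not reported here. Alternatives varied cell filters, class definitions, thinning (1000 UMIs or none), scaling, the count filter and the test, and 2 were added after the data were seen (cells with *Ccr9* or *Itm2a*, or with *Lyz2* UMIs, left out).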

Additional observations from a re-analysis of the deposited data

Results flagged for a closer look

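The difference of *Tox* between subsets was not alike in the 2 libraries. The log2 ratio of *Dnmt1*iECKO over control was lower in *Foxp3*-positive than in Cd8-positive cells by a difference of -0.90 (-0.11 against 0.79), and lower than in Cd4-positive *Foxp3*-negative cells by -1.40 (-0.11 against 1.29). For *Entpd1* the *Foxp3*-positive ratio minus the Cd8-positive ratio was -0.83 (-0.41 against 0.43). For *Tnfrsf4* the Cd8-positive ratio minus the Cd4-positive *Foxp3*-negative ratio was -0.73 (-0.61 against 0.12). In each of these the point values had opposite signs, but the counting interval of one side held 0 (*Tox* -0.26 to 0.04 and *Entpd1* -0.84 to 0.04 in *Foxp3*-positive cells, *Tnfrsf4* -0.06 to 0.31 in Cd4-positive *Foxp3*-negative cells). Across the settings tried signs also turned, with *Tox* between -0.42 and 0.06 and *Entpd1* between -0.61 and 0.75 in *Foxp3*-positive cells, *Entpd1* between -0.11 and 0.69 in Cd8-positive cells, and *Tnfrsf4* between -0.03 and 0.22 in Cd4-positive *Foxp3*-negative cells. With 1 library per condition, the difference between subsets was not tested.

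*Tox* was also found in cells that no comparison used. The 241 cells of the *Dnmt1*iECKO library with *Rag1* or *Dntt* UMIs had 267 CPM of *Tox*, with a UMI in 64.3% of them. That was above the 61.2 CPM of the 3 such control cells, which held only 32709 UMIs of all genes.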

How the results depend on the processing

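The 480 recomputed subset folds include each library's own ratio, which has no p-value. Of the 480, 23 no longer passed, 5 newly passed and 4, all of them a library's own ratio, moved away from the fold. The other 448 count as the same: the call did not change, or the library's own ratio stayed near the fold. A fold called in neither setting counts as the same whatever its sign. Of 530 recomputed library ratios 466 stayed within the counting interval of the reported ratio, 58 left it and 6 reversed. Only a ratio whose interval excluded 0 could count as reversed. Other changes of sign are among the 466 and the 58, such as *Tnfrsf4* in all T cells, between -0.25 and 0.25 across settings. All 56 recomputed shares of cells with several receptors moved by less than their interval, and 73 of 84 recomputed counts of calls stayed within 1.5 times the reported count. The receptors lower in *Foxp3*-positive than in Cd8-positive cells numbered 0 with median-of-ratios size factors. Those higher in *Foxp3*-positive than in Cd4-positive *Foxp3*-negative cells numbered 2 without cells with *Ccr9* or *Itm2a* UMIs. Those higher in Cd8-positive than in Cd4-positive *Foxp3*-negative cells numbered 1 at a mitochondrial limit of 5%, without doublet removal, with *Rag1*- or *Dntt*-positive cells kept and with size factors. They numbered 0 without cells with *Cdh5*, *Epcam*, *C1qa* or *Cd79a* UMIs, with double-positive cells put with Cd8-positive cells, and without cells with *Ccr9* or *Itm2a* UMIs. Those lower in that comparison numbered 1 (*Tnfrsf4*) without doublet removal and without cells with *Ccr9* or *Itm2a* UMIs. Reversed ratios were *Havcr2* in all T cells (-0.10 without *Lyz2*-positive cells), *Entpd1* in all T cells (-0.033 without them and -0.10 with at least 2 of 4 T cell receptor complex genes), *Icos* in *Foxp3*-positive cells (0.10 without doublet removal), *Entpd1* in Cd8-positive cells (-0.11 with double-positive cells included) and *Icos* in Cd8-positive cells (0.21 without *Ccr9*- or *Itm2a*-positive cells). Fewer cells enter some of these settings, and the cause was not tested. Leaving out a library leaves no residual degrees of freedom, so each library's own ratio stands beside the folds. No paired analysis was possible because the labels give each condition 1 library, and library is already a term. The limits are 1 library per condition, 31 control *Foxp3*-positive cells, and cells that passed a sort meant to remove them.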
